A study of Mus musculus with 3 samples.

Results

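The transcriptome of the wild-type mouse embryo at E6.5 was described from 1 of the 3 RNA-seq libraries of the series, the library whose genotype label is wild type. The other 2 libraries were made from tw18/+ and tw18/tw18 embryos and serve here as context. In all 3 the strain was 129/SvEv and the embryos came from crosses between tw18/+ mice, so the wild-type embryos had heterozygous parents. The tw18 chromosome is a t-haplotype with a deletion that removes *Ppp2r1a*, the gene of a scaffold subunit of protein phosphatase 2A. The labels name the tissue as epiblast, while the methods of the study say that the embryo proper was taken, that is epiblast with the visceral endoderm around it, and that the extra-embryonic portion was cut off for genotyping. How many embryos were put into a library is not given in the sources used here.

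All 23421 genes of the table were used, and abundance is given as FPKM, fragments per kilobase of transcript scaled to the number of mapped fragments in the library, which can be compared between genes because it is divided by length. A gene was counted as present at an FPKM of at least 1, the level the study used to set low genes aside. By that rule 11859 genes, 50.6% of those listed, were present in the wild type, against 11879 in tw18/+ and 12402 in tw18/tw18. With 1 library per genotype there was no spread between embryos, so every difference between libraries is a pair of values without a test. The spacing of low values gave the wild type the lowest depth, with tw18/+ at 1.42 and tw18/tw18 at 1.41 times its number of fragments. An FPKM of 1 in the wild type then stands for about 14.6 fragments on a transcript of 1 kb after 150 bp are taken off for fragment length. A value of 0 allows up to 3 fragments, an FPKM of 0.205 at that length. *Ppp2r1a* was at an FPKM of 146 in the wild type, 81.7 in tw18/+ and 12.8 in tw18/tw18, which is the order of the labels. The value in tw18/tw18 was above 0 although the deletion removes the gene, and where that RNA came from was not tested.

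At E6.5 the mouse embryo is a cup of pluripotent epiblast covered by visceral endoderm, an absorptive epithelium that also holds an anterior signalling centre. Nodal, WNT and FGF signals start gastrulation at the posterior edge of the epiblast, where cells leave the epithelium through the primitive streak. The conceptus is embedded in the decidua, transformed uterine stroma, and is bordered by parietal endoderm and trophoblast giant cells, so RNA of these neighbours can enter a dissected sample.

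The genes given as markers of the embryo proper were all present in the wild type. *Dnmt3b*, a de novo DNA methyltransferase, was at an FPKM of 719 and ranked 96 among all genes. *Pou5f1*, which encodes the pluripotency factor OCT4, was at 628 and ranked 109. *Eomes*, a T-box factor of the streak and of trophoblast, was at 77.1, *T*, which encodes Brachyury, at 18.3, and *Lefty2*, a Nodal antagonist, at 7.50. The last value rests on about 255 fragments, with a counting interval of 6.62 to 8.49 at a confidence level of 95%, and that of *T* on about 507 fragments, with an interval of 16.7 to 19.97. These intervals cover counting error only, since amplified fragments are not independent molecules. In tw18/+ the same 5 genes were at 733, 721, 58.0, 6.16 and 4.004, so the pluripotency genes were close to wild type and the streak genes lower.

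The distribution of abundance was steep. No gene reached a higher FPKM than *Lars2* (11199), which encodes the leucyl-tRNA synthetase of mitochondria and stood at 2.58 times the level of the next gene, the translation elongation factor gene *Eef1a1* (4340). It alone held 2.52% of the summed FPKM of 444064. The top 10 genes held 7.89%, the top 100 genes 31.4% and the top 1000 genes 63.8%. The sum reached 50% with 400 genes and 90% with 4710 genes. There were 69 genes at 1000 or above, which together held 25.6% of the sum, 603 genes from 100 to 1000 with 32.0%, 5445 genes from 10 to 100 with 36.3% and 5742 genes from 1 to 10 with 5.80%. The 3234 genes between 0 and 1 held 0.286%, and 8328 genes were listed at 0. The median was 10.5 over the genes that were present and 1.096 over all genes.

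**Figure D1:**
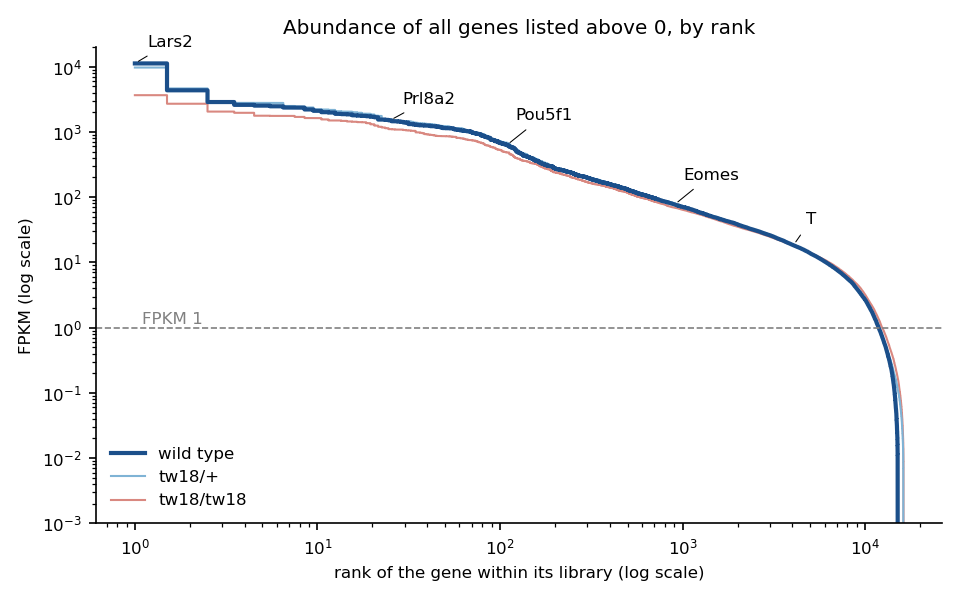
FPKM of every gene listed above 0 (y axis, log scale) against its rank within its library (x axis, log scale), 1 line per library. *Lars2* stands at the left end with 11199 in the wild type, *Prl8a2* at rank 25 with 1504 and *Pou5f1* at rank 109 with 628, and the wild-type and tw18/+ lines lie on each other over most ranks.

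Of the 20 highest genes 10 encoded cytosolic ribosomal proteins, as did 64 of the top 100. After *Lars2* and *Eef1a1* came *Rplp1* (2868) and *Rps2* (2596), which encode ribosomal proteins, the glycolytic enzyme gene *Gapdh* (2527), the nucleolar chaperone gene *Npm1* (2468) and the prolyl isomerase gene *Ppia* (2362). *Rpl41* (2353), *Rps12* (2207) and *Hspa8* (2104), a constitutive heat shock cognate, closed the top 10. Ranks 11 to 20 were held by *Rpl10*, the chromatin protein gene *Ptma*, *Rpl12*, *Rpl19*, the chaperone gene *Hsp90ab1*, *Rpl23a*, *Rpl4*, the lactate dehydrogenase gene *Ldha*, the actin gene *Actg1* and *Rps18*, from 2006 for *Rpl10* to 1708 for *Rps18*.

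*Lars2* stood apart from its class. Its FPKM was 11199 in the wild type, 9689 in tw18/+ and 0 in tw18/tw18. It was therefore the highest gene in the wild type and in tw18/+ and was listed at 0 in tw18/tw18. An exact 0 in a table without counts can be a failed estimate. All 39 aminoacyl-tRNA synthetase genes were present, but *Kars*, the next of them, was at 157, so *Lars2* was 71.6 times as high, and the median of the 38 others was 34.8. Of the 50 bp words in the transcripts of *Lars2*, 0.196% occurred in another annotated gene. Only exact words of annotated transcripts were compared, so this does not show that the fragments came from *Lars2* mRNA, and their origin was not tested. Without *Lars2* the synthetases held 0.359% of the summed FPKM in place of 2.88%.

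Assigning genes to 18 functional classes by their symbols accounted for 51.6% of the summed FPKM. The 88 genes of cytosolic ribosomal proteins held 19.7%, more than any other class, and 87 of them were present. Since FPKM is divided by length and these transcripts are short, their share was 9.51% when each FPKM was multiplied by transcript length. The same weighting took the respiratory chain from 2.45% to 1.41%, histones from 0.981% to 0.496%, unnamed gene models from 3.34% to 1.28%, small RNA genes from 0.250% to 0.0272% and globins from 0.0300% to 0.00314%, and it raised the basement membrane class from 0.174% to 0.379% and long noncoding RNAs from 0.253% to 0.458%. Translation factors followed with 3.59%, led by *Eef1a1*, *Tpt1* (1389) and *Eif5a* (1139), then RNA processing with 3.43%, led by *Ybx1* (566), *Hnrnpa1* (471) and *Hnrnpab* (414), and chaperones with 3.42%, led by *Ppia*, *Hspa8* and *Hsp90ab1* (1856). Chromatin and nucleolar proteins held 2.83%, with *Npm1* and *Ptma* (1980) highest and *Dnmt3b* also among the leading genes. The actin and tubulin cytoskeleton held 2.72%, led by *Actg1* (1739), *Actb* (1544) and *Tuba1b* (1269). The nuclear-encoded respiratory chain held 2.45%, led by the ATP synthase genes *Atp5b* (647), *Atp5g3* (429) and *Atp5g2* (394), and 90 of its 95 genes were present. Glycolysis, with only 19 genes, held 2.03%, led by *Gapdh*, *Ldha* (1759) and *Pkm* (993). The table lists no mitochondrially encoded gene, so the share of that genome was not analysed here.

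The classes below held smaller shares, apart from the unnamed gene models. DNA replication and cell cycle genes held 1.505%, led by *Cdk4* (479), *Ran* (385) and *Pcna* (336), and 126 of 135 were present. The proteasome and ubiquitin class held 1.24%, led by *Ubb* (337), *Psmb5* (225) and *Psmb7* (212). Histones held 0.981%, led by the variant gene *H2afz* (745), *H3f3a* (403) and *Hist1h4d* (395). Mitochondrial ribosomal proteins held 0.749%, and all 76 genes were present, with *Mrpl12* (153), *Mrpl20* (133) and *Mrpl18* (117) highest. The unnamed gene models held 3.34%, with 711 of 3401 present and *Gm9846* (1454), *Gm15772* (1199) and *Gm12191* (963) highest. Long noncoding RNAs held 0.253%, led by the imprinted *H19* (281), *Malat1* (160) and *Snhg1* (97.7). Small RNA genes held 0.250%, of which the RNase P and MRP components *Rpph1* (488) and *Rmrp* (387) and the gene *Rprl3* (112) were highest, and 28 of 779 were present. Collagens, laminins and other basement membrane proteins held 0.174%, led by *Sparc* (136), *Col4a1* (86.8) and *Serpinh1* (71.1), and globins held 0.0300%.

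**Figure D2:**
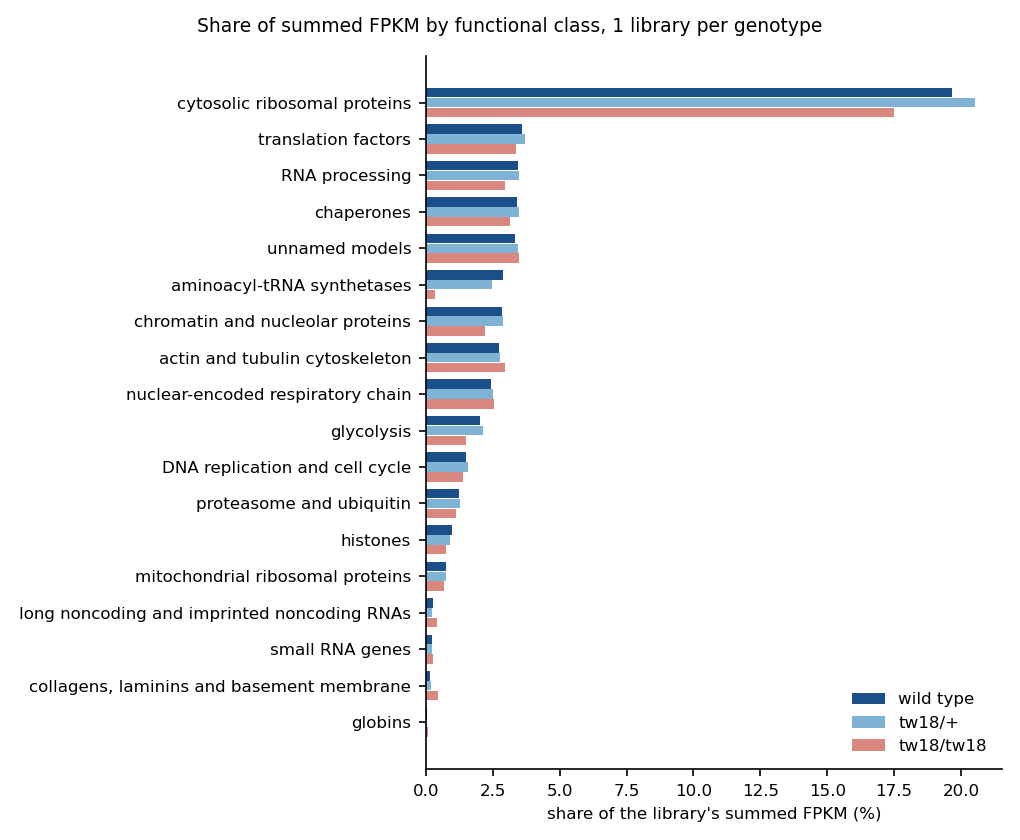
Share of the library's summed FPKM (x axis, percent) held by each functional class (y axis), 1 bar per library. Cytosolic ribosomal proteins hold 19.7% in the wild type, 20.5% in tw18/+ and 17.5% in tw18/tw18, and the synthetases, with *Lars2*, hold 2.88%, 2.49% and 0.339%.

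The shares of tw18/+ lay close to those of the wild type in each of the classes above 1% except the synthetases. In tw18/tw18 the ribosomal proteins (17.5%), glycolysis (1.51%) and the chromatin and nucleolar proteins (2.202%) held less than in the wild type, and the basement membrane class (0.452%) and globins (0.0944%) held more. These shares also depend on the other genes of each library, *Lars2* included.

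The mRNAs of most ribosomal proteins were at similar levels. The lower quartile over the 88 genes was 645 and the upper quartile 1260, a 1.95-fold range, around a median of 1030. The few low members included *Rpl26* (35.5), *Rpl30* (47.3), *Rps15a* (64.9) and *Rps27* (8.52), named after their values were seen. For *Rpl26* the gene model *Gm15772* was at 1199, and 74.3% of the 50 bp words of its transcripts occur in *Rpl26*, so the counting could have divided fragments between them. *Rpl34* was at 107 and *Rpl34-ps1* at 934. Every word of *Rpl34-ps1* occurs in another gene, 83.3% of them in *Gm10154*, and its share with *Rpl34* itself was not examined. Over the 63 ribosomal protein genes of the top 100 with annotated transcripts, the median share of words found in another gene was 26.3%, so values of single members are uncertain. *Rpl3l*, a muscle paralog, was at 0, while *Rpl10l* and *Rpl39l*, paralogs known from the testis, were at 1.77 and 2.79.

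Messenger RNAs of the translation machinery are known for a 5′ terminal pyrimidine tract, a C at the cap followed by further pyrimidines, through which growth signals regulate their translation. The annotated starts were read for this tract, taken as C followed by at least 4 more pyrimidines on the transcript strand, in GENCODE M21 transcripts of GRCm38. It opened the chosen transcript of 11 of 86 ribosomal protein genes (12.8%), of 9 of 93 genes in the top 100 (9.68%), of 247 of 10903 present genes (2.27%) and of 417 of 19393 genes in all (2.15%). Annotated starts need not be the starts used in the embryo, and a gene without the tract here may have it at another start. The first 20 bases are shown for 4 abundant ribosomal protein genes that have it and, for comparison, for those of the 5 highest genes that lack it, with the tract in capitals:
Rps2: CTTCTTCTTCTTCgggagaa
Rpl4: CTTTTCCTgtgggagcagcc
Rps10: CTTTCCagcctccgcctcgg
Rpl36: CTTCCTgtcccggccgccat
Lars2: gataaagttgttgttttgcc
Eef1a1: ttcccgagggtgggggagaa
Rplp1: gatcttttcctcagctgccg
Gapdh: aacccttaagagggatgctg
In the chosen transcripts the tract ran for 13 bases in *Rps2* (FPKM 2596), 8 bases in *Rpl4* (1777) and 6 bases in *Rps10* (1169) and *Rpl36* (1076).

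The mRNAs for subunits of some other complexes were also within narrow ranges. The 8 subunits of the CCT chaperonin, which folds actin and tubulin, ranged from 207 (*Cct4*) to 431 (*Cct6a*). The 6 MCM2-7 subunits of the replicative helicase ranged from 98.5 (*Mcm4*) to 189 (*Mcm7*), and the 14 subunits of the 20S proteasome from 125 (*Psma1*) to 225 (*Psmb5*). The polycomb core was less even, from 31.7 for *Eed* to 144 for *Rbbp7*, a histone-binding protein that other complexes use as well. Of the 9 genes of the Arp2/3 complex, which nucleates branched actin, 8 ranged from 31.6 (*Arpc1a*) to 114.7 (*Arpc2*), while *Actr3* was listed at 0. *Actr3* was at 81.5 in tw18/+ and 76.8 in tw18/tw18, so the 0 of the wild type stands beside partners at an FPKM of 31.6 or more and can be a failed estimate. *Amd1*, at 0.0030 against 90.9 and 29.5, and the globin gene *Hba-a2*, at 0.020 against 26.9 and 127, were listed near 0 in the same way.

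Many transcription factor genes were present, but they held little of the sum. Of 1236 genes matched by symbol to 19 families, 760 were present (61.5%, against 50.6% of all genes and 56.3% of 19376 protein-coding genes), 268 were at 10 or above and 9 were at 100 or above. Together they held 2.40% of the summed FPKM, and *Pou5f1* alone made up 5.90% of that. Their median among those present was 6.42, against 10.5 for all present genes. The symbols also matched antisense transcripts, such as *Dlx1as* and *Six3os1*, and some genes that do not encode transcription factors. All these counts and shares are therefore of symbol matches. At the threshold *Grhl1* (1.004) and *Twist1* (1.02) were just inside and *Nfe2l3* (0.996) and *Twist2* (0.993) just outside, values that rest on about 22.1 to 48.7 fragments each.

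The highest after *Pou5f1* included *Zfp207* (170), *Utf1* (165), a chromatin factor of pluripotent cells, and *Sall4* (152), a zinc finger partner of OCT4. *Tead2* (149) is a DNA-binding effector of the Hippo pathway, and *E2f4* (135) and *Tfdp1* (108) are cell cycle regulators. *Foxh1* (110), the forkhead partner of SMAD2 and SMAD3, stood in the same range, as did *Gtf2i* (97.2). *Tgif1* (89.9) is a repressor of SMAD targets, *Tcf7l1* (84.3) a repressive WNT effector and *Otx2* (82.7) a regulator of the anterior epiblast and visceral endoderm. *Rhox5* (81.1), an X-linked homeobox gene, and *Etv5* (80.9), an FGF-responsive ETS factor, closed the highest 15, and *Eomes* was next. The 15 therefore mixed general regulators of growth with factors of pluripotency and of Nodal, WNT, FGF and Hippo signalling.

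The families differed in how many members were present. All 8 SMAD genes were present, led by *Smad4* (41.0), *Smad1* (21.2) and *Smad7* (15.7). All 7 genes of the HMG group with the TCF/LEF genes were present too, led by *Tcf7l1*, *Ubtf* (34.3) and *Tcf7* (33.4). Of the group with the E2F and MYB genes 16 of 18 were present, and of the Zfp, Zscan and Zkscan zinc finger genes 316 of 388 (81.4%), with *Zfp106* (77.0) and *Zfp36l2* (63.9) after *Zfp207*. Kruppel-like and Sp genes had 20 of 26 present (*Sp1* 31.9, *Sp3* 28.4, *Klf5* 23.3), bZIP genes 37 of 51 (*Atf4* 74.2, *Cebpz* 40.2, *Atf1* 37.2) and ETS genes 18 of 25 (*Etv5*, *Gabpa* 32.9, *Erf* 24.8). The zinc finger group with the Gli, Sall, Zbtb and Prdm genes had 80 of 111 (*Sall4*, *Maz* 73.3, *Ctcf* 62.4), and the STAT, IRF and NF-kB group 22 of 31 (*Nfatc3* 35.04, *Rbpj* 33.6, *Irf3* 24.9). The TEAD group had 20 of 29 (*Tead2*, *Cbfb* 45.9, *Ubp1* 33.2), GATA factors 4 of 6 (*Gata4* 25.95, *Gata2* 8.44, *Gata6* 5.76) and the mixed group with *Utf1* and *Gtf2i* 44 of 66. Without the Zfp, Zscan and Zkscan genes the share present over all families was 52.4% (444 of 848). That is close to the 50.6% of all genes and below the 56.3% of protein-coding genes.

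The remaining families had smaller shares of members present than the 50.6% of all genes, by little for forkhead (48.9%) and basic helix-loop-helix genes (49.5%). The members that were present were not low in each family, with medians of 23.0 for POU, 16.9 for T-box and 11.1 for Sox genes against 6.42 over all present factors, and 4.82 for homeodomain genes. Homeodomain genes had 58 of 223 present (26.01%) and 113 at 0, with *Tgif1*, *Otx2* and *Rhox5* highest. Of the 39 Hox genes, which set position along the later body axis, 22 were at 0 and 5 were present, *Hoxa10* (7.64), *Hoxa11* (3.67), *Hoxd10* (2.90), *Hoxd11* (1.66) and *Hoxd9* (1.28). These are posterior members, which are also known from the uterus, and they were higher in tw18/tw18, at 32.9, 30.8, 19.1, 13.1 and 4.82. POU genes had 4 of 16 present, with *Pou3f1* (36.2), an epiblast and neural factor, second to *Pou5f1*, and T-box genes 5 of 17 (*Eomes*, *T* and *Mga* 16.9 highest). Sox genes had 8 of 19 (*Sox12* 31.4, *Sox11* 19.9, *Sox4* 16.1), and *Sox2*, the partner of OCT4, was at 13.003. Nuclear receptors had 21 of 49 (*Nr6a1* 49.5, *Rarg* 39.4, *Rara* 22.0), forkhead genes 22 of 45 (*Foxh1*, *Foxo4* 41.4, *Foxp4* 37.4) and basic helix-loop-helix genes 50 of 101 (*Id3* 75.1, *Hif1a* 68.4, *Epas1* 59.6).

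**Figure D3:**
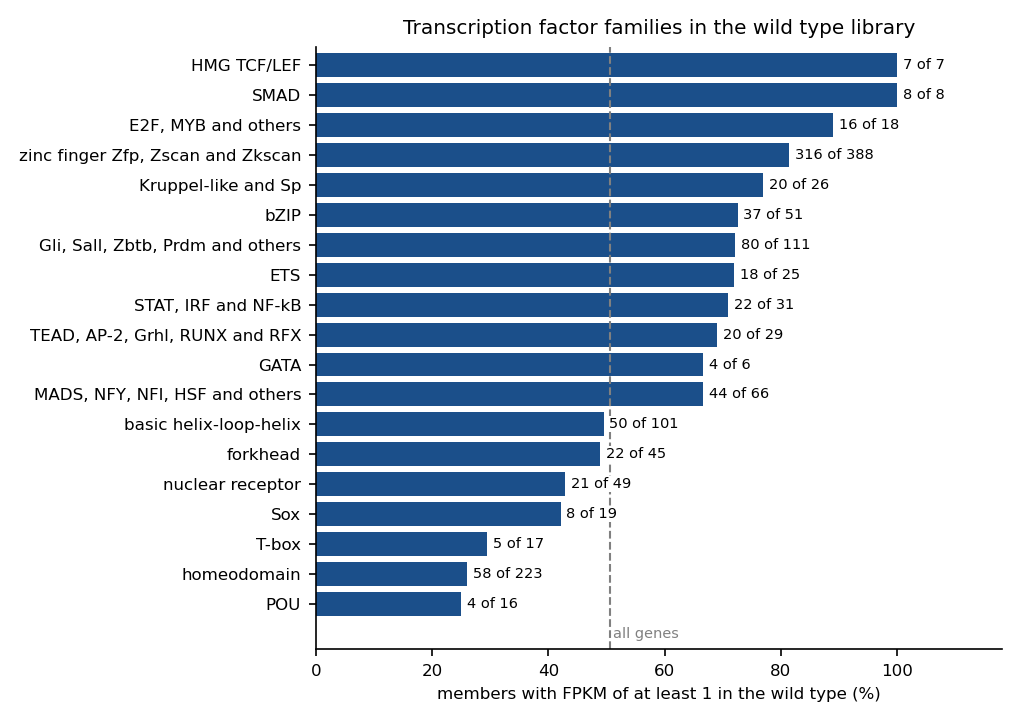
Share of each transcription factor family's members with an FPKM of at least 1 in the wild type (x axis, percent), with the counts printed beside the bars and a dashed line at the 50.6% of all genes. All genes grouped as SMAD and as HMG TCF/LEF are present, while T-box, homeodomain and POU genes stand at or below 29.4%.

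Signalling genes were present more often than genes at large. Of 326 genes of 9 pathways 242 were present (74.2%, against 50.6% of all genes and 56.3% of protein-coding genes). Their median was 6.16, against 1.096 over all genes. The roles differed: 70 of 72 intracellular transducers (97.2%) and 50 of 64 receptors (78.1%) were present, but 29 of 74 ligands (39.2%), of which 21 were at 0. The median was 18.9 for transducers, 9.48 for antagonists, 5.19 for receptors and 0.519 for ligands. The highest genes by role were *Ctnnb1* (241), which encodes beta-catenin, among transducers, *Csnk1a1* (121) among antagonists, *Fgf5* (73.0) among ligands and *Smo* (67.2) among receptors.

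**Figure D4:**
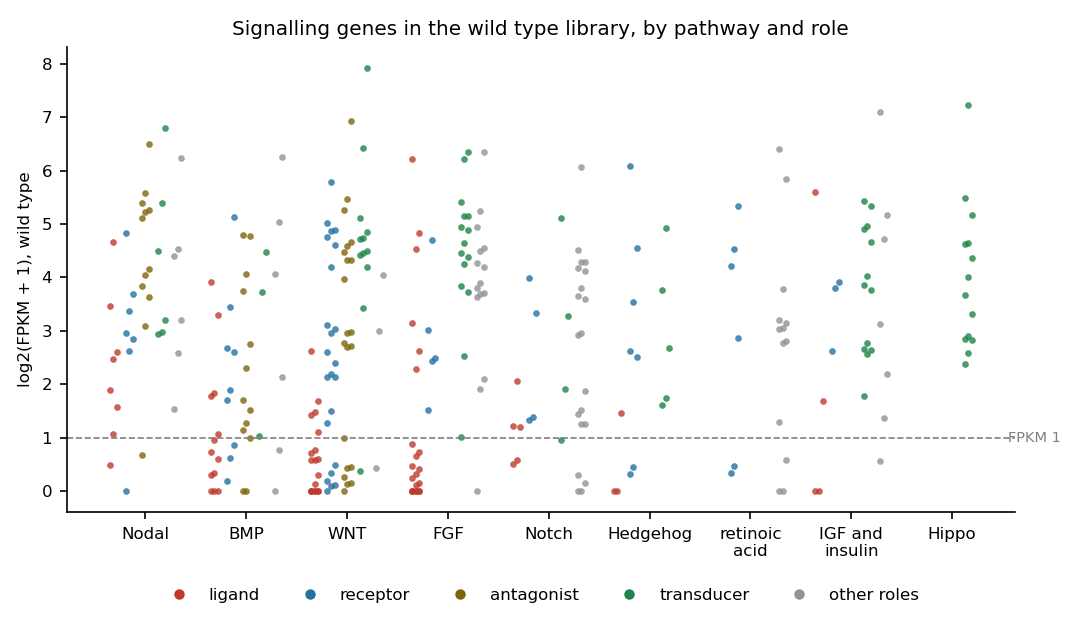
Level of each signalling gene in the wild type (y axis, log2(FPKM + 1)) by pathway (x axis) and role (colour), 1 point per gene, with a dashed line at an FPKM of 1. Of the transducers 70 of 72 lie above the line, and of the ligands 29 of 74.

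Of 39 Nodal pathway genes 36 were present. Among the ligands *Nodal* was at 24.2, *Gdf1*, its co-ligand, at 9.99, the activin subunit gene *Inhba* at 5.07, *Gdf3* at 4.53 and *Tgfb2* at 2.73. The EGF-CFC co-receptor *Tdgf1*, also called Cripto, was at 74.5 and *Cfc1* at 8.16. The highest receptors were *Acvr2b* (27.6), *Tgfbr3* (11.95), *Tgfbr1* (9.32), *Acvr2a* (6.81), *Tgfbr2* (6.21) and *Acvr1b* (5.19), while *Acvr1c* was at 0. Of the antagonists *Tgif1* was highest, followed by *Cer1* (46.6), a secreted inhibitor from the anterior visceral endoderm, *Drap1* (41.0), *Fst* (37.3), *Skil* (36.4) and *Ski* (33.5), and *Lefty1*, the other Lefty gene, was at 13.3. *Furin* and *Pcsk6*, which the study names as Nodal convertases, were at 19.999 and 5.04. The other convertase genes listed, *Pcsk5* and *Pcsk7*, were at 22.2 and 1.92. *Foxh1* (110) and *Smad4* (41.0) led the transducers, ahead of *Trim33* (21.5), *Smad3* (8.25), *Smad2* (6.86) and *Zfyve9* (6.71).

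BMP ligands were low. Of 13 listed, 5 were present, *Bmp2* (14.1), the metalloprotease gene *Bmp1* (8.85), *Bmp7* (2.57), *Bmp4* (2.43) and *Bmp8a* (1.104), and *Bmp8b* was at 0.936. *Bmp4* and *Bmp8b* are made by extra-embryonic ectoderm at this stage, the tissue that was dissected away. The receptors *Bmpr1a* (33.9), *Bmpr2* (9.88) and *Acvr1* (5.43) were present, as were the transducers *Smad1* (21.2), *Smad5* (12.2) and *Smad9* (1.04). The antagonists were led by *Fstl1* (26.8), *Twsg1* (26.3), *Smad7* (15.7) and *Smurf2* (12.4), while *Grem1* and *Sostdc1* were at 0. Of the known targets *Id3* was at 75.1, *Id1* at 31.8, *Id2* at 15.7, *Msx2* at 3.38 and *Msx1* at 0.713, with *Id4* at 0.

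WNT ligands were few. Of 19 listed, 5 were present, *Wnt3* (5.16), the ligand needed for the streak, *Wnt5a* (2.1997), *Wnt2b* (1.78), *Wnt4* (1.69) and *Wnt8a* (1.14), and 7 were at 0, *Wnt3a* among them. The receptors were led by *Fzd7* (54.5), the co-receptor *Lrp5* (31.4), *Ryk* (28.6), *Ptk7* (28.3), *Fzd5* (26.2) and *Fzd2* (23.4). Of the antagonists and destruction complex members *Csnk1a1* (121), *Gsk3a* (43.0), *Sfrp1* (37.5), *Dkk1* (24.3), *Axin1* (23.0) and *Gsk3b* (21.4) were highest, and *Axin2*, itself a WNT target, was at 14.7. After *Ctnnb1* the transducers were led by *Tcf7l1*, *Tcf7*, *Lef1* (27.8), *Bcl9* (25.6) and *Pygo2* (25.4). *Wls*, which carries WNT ligands to the surface, was at 15.5 and *Porcn*, which acylates them, at 6.997.

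Of 57 FGF pathway genes 40 were present. The ligands were led by *Fgf5* (73.0), an epiblast marker, *Fgf8* (27.6), which streak cells need to migrate, *Fgf15* (22.2), the intracellular *Fgf13* (7.90), *Fgf10* (5.16) and *Fgf4* (3.85). *Fgfr1* (25.1) was the highest receptor, followed by *Fgfrl1* (7.08), *Fgfr4* (4.65), *Fgfr2* (4.39) and *Fgfr3* (1.85). The ERK gene *Mapk3* (80.4) led the transducers. Feedback genes were nearly all present, 14 of 15, led by *Etv5* (80.9), *Dusp6* (36.9), *Spred2* (29.7), *Spry2* (22.4), *Spry1* (21.6) and *Spry4* (18.2).

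In the Notch and Hedgehog pathways the highest receptors stood above the highest ligands, and in the IGF pathway the ligand *Igf2* stood above *Igf1r*. Notch ligands were at most 3.19 (*Jag1*), while *Notch2* was at 14.8, *Notch3* at 9.05 and the effector *Rbpj* at 33.6. *Hes1* (18.6) and *Hes6* (11.5) were the highest of the listed targets, and *Hes5* was at 0. Of the Hedgehog ligands only *Ihh* (1.75), made by visceral endoderm, was present, whereas *Shh* and *Dhh* were at 0, *Smo* was at 67.2, *Ptch1* at 22.3, *Gas1* at 10.7 and *Sufu* at 29.3. Retinoic acid genes included the catabolic enzyme *Cyp26a1* at 56.6, above the synthetic *Aldh1a2* (7.29) and *Rdh10* (7.19), and the receptors *Rarg* (39.4), *Rara* (22.0) and *Rxrb* (17.7). In the IGF pathway *Igf2* (47.5) and *Igf1* (2.22) were the ligands present, with *Igf1r* at 14.1 and the binding protein *Igfbp2* at 135. All 14 Hippo genes were present, led by *Tead2*, *Yap1* (43.6) and *Stk4* (35.1).

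All 20 epiblast markers were present, with a median of 77.0 against 1.096 over all genes. After *Dnmt3b* and *Pou5f1* came *Pim2* (363), *Trim28* (316) and *Utf1* (165). *Otx2* (82.7) and *Fgf5* (73.0) mark the epiblast after implantation. Of 16 naive genes 10 were present, with a median of 2.40, and the defining ones were at 23.0 (*Nanog*), 4.76 (*Tfcp2l1*), 3.54 (*Klf4*), 3.46 (*Zfp42*), 1.19 (*Esrrb*) and 0.439 (*Klf2*). *Dppa5a* (60.2) and *Klf5* (23.3) were high among them. The de novo enzyme *Dnmt3b* was accompanied by *Uhrf1* (117), *Dnmt1* (61.0) and *Dnmt3a* (35.1).

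Primitive streak genes were present at moderate levels, 15 of 19, with a median of 7.50. *Eomes* (77.1), *Fst* (37.3), *Mixl1* (33.9), *Lhx1* (28.8) and *Fgf8* (27.6) were highest, followed by *Snai1* (21.6), a repressor of epithelial genes, *T* (18.3), *Gsc* (12.03), *Mesp1* (7.26) and *Wnt3* (5.16). *Cdx1*, *Wnt3a* and *Nkx1-2*, which mark the later streak, were at 0 and *Cdx2* was at 0.473. The list's sum was 298 in the wild type, 214 in tw18/+ and 180 in tw18/tw18. It was higher in the wild type than in tw18/+ for 14 of 19 genes, where 49.5% of 12426 genes at 1 or above in either library were. *Mesp1*, the first factor of nascent mesoderm, was at 7.26 in the wild type, 0.530 in tw18/+ and 0 in tw18/tw18, so the wild type and tw18/+ were not alike for it.

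Genes of later derivatives differed by list. Of 20 nascent mesoderm genes 11 were present, near the 50.6% of all genes, and none reached 10, with *Hand1* (9.31), *Lefty2* (7.50), *Mesp1* (7.26), *Pdgfra* (7.18) and *Cdh11* (6.94) highest, *Kdr* at 1.43, *Tbx6* at 0.338 and *Msgn1* at 0. Of 10 early neural genes 2 were present, *Nes* (3.24) and *Hesx1* (3.18), and *Sox1* (0.269), *Pax6* (0) and *Six3* (0.767) were below 1. Of 12 node and axial mesoderm genes 9 were present, 6 of them at 10 or above. Of the defining ones *Noto* and *Shh* were at 0, *Foxj1* at 2.64 and *Chrd* at 1.86, and the highest were *Trh* (100.04), *Cer1*, *Lhx1*, *T* and *Gsc*, of which the last 4 are also on other lists. Of 11 germ cell precursor genes 8 were present, with the highest values for *Lin28a* (187), *Ifitm3* (30.1) and *Alpl* (11.7), with *Tfap2c* at 6.36, *Prdm1* at 5.27, *Prdm14* at 0.0559 and *Dppa3* at 0.

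Visceral endoderm was plainly represented, and all 25 of its genes were present, with a median of 37.3. *Spink3*, a serine protease inhibitor, was highest (424), followed by the apolipoprotein genes *Apoe* (258) and *Apoa1* (246), the endocytic adaptor *Dab2* (179) and *Apoc2* (154). The defining genes were all present, with *Apob* at 131, *Ttr*, a thyroxine carrier, at 124, *Afp*, alpha-fetoprotein, at 106 and *Amn*, a part of the cubilin receptor, at 22.5. The list held 0.495% of the summed FPKM, against 0.695% for the epiblast list. All 12 genes of the anterior visceral endoderm were present as well, with *Otx2*, *Cer1* (46.6), *Sfrp1* (37.5), *Lhx1* (28.8) and *Fzd5* (26.2) highest and *Dkk1* at 24.3, *Lefty1* at 13.3, *Hhex* at 7.16 and *Hesx1* at 3.18. The library labelled epiblast therefore held visceral endoderm RNA beside that of the epiblast, and the methods name both tissues as dissected.

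Genes of epithelial junctions and of nutrient uptake were high. *Cdh1*, which encodes E-cadherin, was at 125, and *Cldn6* at 191, *Ctnna1* at 83.7, *Epcam* at 79.3 and *Cldn7* at 64.0, while *Cdh2*, N-cadherin, was at 20.03. The glucose transporter genes *Slc2a1* (258) and *Slc2a3* (244) and the lactate transporter genes *Slc16a1* (160) and *Slc16a3* (147) were high as well.

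The extra-embryonic ectoderm was cut away. Its defining genes were at 1.93 (*Elf5*), 0.473 (*Cdx2*), 2.43 (*Bmp4*) and 0.936 (*Bmp8b*), apart from *Eomes* (77.1), which the streak and visceral endoderm also express. The value of *Cdx2* rests on about 14.6 fragments, with a counting interval of 0.272 to 0.802. Of the 21 genes listed 15 were present, a larger share than the 50.6% of all genes, and 8 were at 10 or above. Genes among the highest, *Rhox5* (81.1), *Eomes*, *Furin* (19.999) and *Spry4* (18.2), are not restricted to this tissue. In a bulk sample, fewer cells of a type and less RNA per cell cannot be told apart.

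Trophoblast giant cell genes were present as well. *Prl3d1*, placental lactogen I of giant cells, was at 113 in the wild type, 61.5 in tw18/+ and 202 in tw18/tw18. Its near-copies *Prl3d2* (30.3) and *Prl3d3* (40.7) share 68.2% and 67.5% of their 50 bp words with other genes, so the 3 values are not independent. *Plac8* (54.7), *Prl6a1* (57.8), *Krt18* (119) and *Krt8* (74.5) were also present. Of these *Prl6a1* is on the decidual list as well, and the keratins are genes of simple epithelia in general. *Hand1* was at 9.31, *Prl2c2* at 1.74 and *Ascl2* at 1.30, *Tpbpa*, a spongiotrophoblast gene, was at 0.317, and *Prl3b1*, *Ctsq* and *Ctsj*, of later giant cells, were at 0. All 16 parietal endoderm genes were present, led by *Sparc* (136), *Col4a1* (86.8), *Lamc1* (62.9), *Cited1* (54.9) and *Lamb1* (42.4), with *Lama1* at 18.1 and *Thbd* at 3.10. Their sum was 578 in the wild type, 650 in tw18/+ and 1297 in tw18/tw18. These proteins are also made by visceral endoderm, so the list does not separate the tissues.

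The highest genes of the decidual list were a pair of prolactin genes. *Prl8a2*, the decidual prolactin-related protein, was at 1504 in the wild type, 155 in tw18/+ and 377 in tw18/tw18, so its wild-type value was 9.70 and 3.99 times the others. At rank 25 it was the most abundant gene outside the functional classes and stood above *Pou5f1*. It rests on about 17338 fragments, and 0% of its words occur in another gene. *Prl3c1*, a second decidual member, was at 121, 13.2 and 25.2, ratios of 9.21 and 4.82. Both lie in the prolactin cluster on chromosome 13 (GRCm38), *Prl8a2* at chr13:27345673-27354216 and *Prl3c1* at chr13:27196659-27203749. The other prolactin gene of the decidual list, *Prl6a1*, was at 57.8, 33.2 and 59.1, ratios of 1.74 and 0.979, so it did not stand above tw18/tw18.

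Of 26 prolactin family genes 13 were present in the wild type and 8 were at 0. The family summed to 1972 (0.444% of the library) in the wild type, 384 (0.0843%) in tw18/+ and 926 (0.242%) in tw18/tw18, and *Prl8a2* made up 76.3% of the wild-type sum. All 13 present members were higher in the wild type than in tw18/+, and 8 of them were also higher than in tw18/tw18, while 5 were not. The 13 were taken by their wild-type value, so these counts lean towards the wild type and cannot show a difference of the family. Among genes at 1 or above in either library, 49.5% were higher in the wild type than in tw18/+ and 50.4% than in tw18/tw18. *Prl8a9* was at 68.9, 67.8 and 82.2 in the wild type, tw18/+ and tw18/tw18, *Prl6a1* at 57.8, 33.2 and 59.1 and *Prl5a1* at 11.8, 6.70 and 8.48. Lower members above both libraries were *Prl7a1* (9.06, 3.74 and 8.70), *Prl7a2* (4.88, 1.79 and 1.35), *Prl4a1* (3.65, 2.37 and 0.735), *Prl2c4* (2.60, 0.110 and 0.874) and *Prl2c2* (1.74, 0.131 and 0.396), the last with 83.3% of its words in other genes.

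The rest of the decidual list went another way. All 29 genes together summed to 2021 in the wild type, 497 in tw18/+ and 1289 in tw18/tw18, but without the prolactin genes the sums over 26 genes were 338, 296 and 828. Of these 26 genes, 13 were higher in the wild type than in tw18/+, where 49.5% of all genes were, and 5 were higher than in tw18/tw18, where 50.4% of 12917 genes were. The uterine factors *Hoxa10* (7.64, 11.8 and 32.9), *Hoxa11* (3.67, 6.87 and 30.8), *Wnt4* (1.69, 3.32 and 11.2), *Pgr*, the progesterone receptor (5.08, 3.36 and 11.2), and *Hand2* (27.5, 16.3 and 63.0) were all highest in tw18/tw18. *Cryab* (93.8) and *Des* (45.5), a muscle and decidual filament protein, were the highest genes of the list after the prolactins in the wild type.

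*Prl8a2* and *Prl3c1* were among 21 genes that stood at least 2-fold above both other libraries, of 6117 genes at 10 or above in the wild type (0.343%), and 15 of 5584 stood at least 2-fold below both (0.269%). Several of the 21 were named after their values were seen. *Timp3*, a matrix metalloprotease inhibitor of decidual cells, was at 210 in the wild type, 22.3 in tw18/+ and 81.9 in tw18/tw18, the secreted protease gene *Htra1* at 46.8, 9.72 and 22.1, and the prostaglandin transporter gene *Slco2a1* at 33.1, 5.32 and 14.4. The mast cell tryptase genes *Tpsab1* (12.8, 0.958 and 2.10) and *Tpsb2* (11.2, 2.96 and 3.02) had the same order. *T* was among the 21 too, at 18.3, 6.16 and 0, with *Apln*, the gene of a secreted peptide, at 14.6, 7.13 and 1.71, so the genes above both libraries were not of 1 tissue. The lowest relative to both, *Actr3*, *Amd1* and *Hba-a2*, are the near-zero values described above, and *Mgp*, a matrix protein of stroma, was at 16.2, 43.0 and 180. The part of maternal tissue in these differences was not tested.

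**Figure D5:**
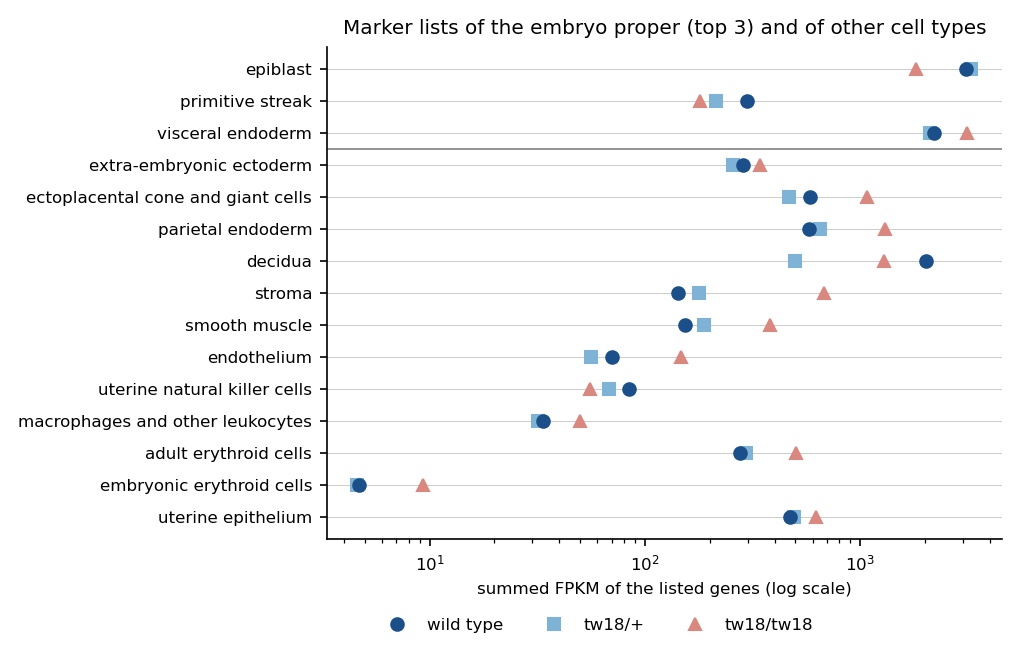
Summed FPKM of the genes of each marker list (x axis, log scale) for the 3 libraries, with the lists of the embryo proper above the grey line and those of other cell types below it. Decidua is the list in which the wild type (2021) is furthest above tw18/+ (497). Stroma, smooth muscle, parietal endoderm, adult erythroid cells and uterine epithelium are lowest in the wild type.

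The lists of other maternal and blood cell types had unequal shares of genes present, against 50.6% of all genes. Of 19 stromal genes 16 were present, 4 of them at 10 or above, and the list summed to 142 in the wild type, 179 in tw18/+ and 675 in tw18/tw18, with *Col1a1* at 35.9, *Bgn* at 19.9, *Mgp* at 16.2, *Fbln1* at 15.9, *Mmp2* at 9.50, *Col1a2* at 7.29, *Col3a1* at 5.44, *Dcn* at 3.996, *Pdgfrb* at 1.22 and *Lum* at 0.907. Of 12 smooth muscle genes 9 were present, with a sum of 154, led by *Tpm1* (67.3), *Des* (45.5) and *Smtn* (20.08), which other cells also express. The defining genes were lower, with *Acta2* at 1.38, *Tagln* at 3.33, *Cnn1* at 1.68, *Actg2* at 1.49 and *Myh11* at 0.165. Of 19 endothelial genes 11 were present, of which *Cdh5* (23.2), *Egfl7* (16.6) and *Pecam1* (8.39) were highest, *Flt1* was at 2.69, and *Tie1* (0.616) and *Tek* (0.280) were below 1. Of 20 genes of uterine natural killer cells 3 were present, with *Gzme* at 1.26, *Gzmd* at 0.850, *Gzmc* at 0.775, *Gzmb* at 0.511 and *Prf1* at 0.353 and with *Gzma* and *Ncr1* at 0, and the sum of that list (84.6) is nearly all *Eomes*. Among leukocyte genes *Csf1r*, which trophoblast also expresses, was at 10.7, *Cd68* at 4.96, *Lyz2* at 3.77, *Ptprc*, the CD45 gene, at 0.248 and *Emr1*, the F4/80 gene, at 0.0669. Of 18 uterine epithelium genes 10 were present, 7 of them at 10 or above, with a sum of 471. The highest were *Cdh1* (125), *Krt18* (119), *Epcam* (79.3), *Krt8* (74.5) and *Wfdc2* (24.6), of which the first 4 are genes of simple epithelia in general, while the defining *Ltf* and *Lif* were at 0 and *Muc1* was at 0.616.

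Adult globins were detectable and embryonic globins were not. *Hbb-b1* was at 53.8, *Hba-a1* at 52.2 and *Hbb-b2* at 27.1, whereas *Hba-x*, *Hbb-y* and *Hbb-bh1*, which the yolk sac makes from a later stage, were at 0 in all 3 libraries. Of 13 adult erythroid genes 6 were present. *Car2* (131) led them but is expressed widely, *Slc4a1* was at 0, *Alas2* was at 0.293, and *Gata1* and *Klf1* were at 0.914 and 0. The globin genes are near-copies, and *Hba-a1* went from 52.2 in the wild type to 0.0070 in tw18/tw18 as *Hba-a2* went from 0.020 to 127, so single members are best read as a sum of 133 in the wild type.

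RNA of both sexes was in the library. *Xist*, transcribed from the inactive X of female cells, was at 27.9, and the Y-linked genes *Eif2s3y*, *Ddx3y*, *Uty* and *Kdm5d* were at 29.2, 9.19, 5.96 and 3.94. The sample therefore held male RNA together with female RNA, from embryos of both sexes or from maternal tissue, which cannot be told apart. In tw18/+ *Xist* was at 55.2 and *Eif2s3y* at 21.7, and in tw18/tw18 they were at 105 and 8.22, so the wild type had the lowest *Xist* and the highest *Eif2s3y* of the 3. The 396 X-linked genes that were present had a median of 9.89, against 10.9 over 10500 present autosomal genes.

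Chemosensory receptor genes stood at the other end of the scale. Of 1447 olfactory and vomeronasal receptor genes 1419 were listed at 0 and 8 were present, with the pseudogene *Olfr856-ps1* highest at 9.48. Such receptors made up 23.6% of the 5831 protein-coding genes at 0 and 0% of those at 10 or above. Transcripts of the 65 protein-coding genes at 1000 or above were short, with a median of 1120 bases for the longest annotated transcript, against 3346 for genes from 10 to 100 and 2152 for genes at 0.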

How the data were processed

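RNA was sequenced from 1 sample each of wild type, tw18/+ and tw18/tw18 embryos. The authors prepared libraries of total RNA using TotalScript and 14 PCR cycles, sequenced 50 bp paired-end reads, mapped them to mm10 (GRCm38) with TopHat and deposited FPKM values calculated with Cuffdiff. Bowtie 1.0.0 and Cufflinks 2.2.1 are named in the submitters' processing notes, and the gene annotation given to Cuffdiff is not given in the sources used here. FPKM is divided by transcript length and library size, so 1 abundant gene lowers all others.

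Values were computed with Python 3.11.15, numpy 2.4.6 and pandas 2.3.3 and plotted with matplotlib 3.10.9. Depth came from 181 low values of genes with a single transcript, with an allowance of 150 bp for fragment length. Of these values 74.6% came within 0.2 fragments of a whole number, but the spacing was fitted to the same values. The step was tested on simulated data made with the same allowance, so that test cannot check the allowance itself. Fragment numbers for single genes are therefore estimates. Classes and families were assigned by symbol, and marker and pathway lists came from general knowledge. The members and lists were chosen with earlier results of these data known. GENCODE M21 matched 21847 of 23421 symbols, and shared sequence is the percent of a gene's 50 bp words found in another gene. For transcript starts, 1 annotated transcript per gene was read. The promoter table covered too few of the genes for a check and was not used. Genes named are the 20 highest, the 5 given markers, the 3 highest of a class or family and the 15 highest transcription factors. For a pathway role they are up to 6 members, and for a marker list the 5 highest and the defining members. A few genes that the rule names are not reported here. Genes outside this rule were chosen after their values were seen. Alternatives covered the genes in the total, weighting by length, the threshold and the summary of lists.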

Additional observations from a re-analysis of the deposited data

How the results depend on the processing

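No paired analysis was possible because each genotype has 1 library and no replicate numbers, and leaving out a replicate was likewise not possible. The share of the top 10 genes was 5.97% without *Lars2*, 8.18% without small RNA genes and unnamed models, 8.46% with each FPKM multiplied by transcript length and 7.91% over genes at 1 or above. The share of the top 100 was 29.8%, 32.2%, 23.2% and 31.5% in the same order, and 31.5% without small RNA genes alone. For ribosomal proteins these 5 settings gave 20.2%, 20.4%, 9.51%, 19.7% and 19.7%, and for all classes together 50.3%, 49.7%, 38.8%, 51.6% and 51.4%. Weighting by length lowered the ribosomal share, since these transcripts are short. Of the 90 shares of single classes (18 classes in 5 settings) 56 moved beyond an interval that treats the summed FPKM as fragments. Taking genes out of the total or weighting by length shifts shares by arithmetic, so this count does not measure how firm they are. At thresholds from above 0 to 5 the genes present numbered from 15093 to 8418 and the signalling genes from 294 to 185. Transcription factors numbered 447 at 5 or above and 444 without the Zfp, Zscan and Zkscan genes. Of 12 lists of other cell types the wild type exceeded tw18/+ in 7, and in 6 to 8 under the other summaries. Without replicates no difference between libraries can be set against a spread. Values below an FPKM of about 0.205 rest on 3 fragments or fewer for a transcript of 1 kb after the allowance for fragment length.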

Other observations

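Some other abundant genes outside the classes are given here as single values. The ferritin subunit genes *Ftl1* and *Fth1* were at an FPKM of 1251 and 590, the cytokine gene *Mif* at 1140, the extracellular glutathione peroxidase gene *Gpx3* at 935 and the peroxiredoxin gene *Prdx1* at 659. These genes were chosen after their values were seen. In tw18/+ they were at 1352, 601, 1110, 884 and 717, close to the wild type. In tw18/tw18 they were at 1429, 813, 651, 2700 and 420, so that *Gpx3* was the second most abundant gene there, behind *Eef1a1*, while it ranked 75 in the wild type.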
